A study of Mus musculus with 11 samples.

Results

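The Rhoh and Nck2 loci are long stretches of acetylated chromatin in mouse thymocytes, and they were examined here through every peak called in a window around each gene. The Rhoh window was chr5:66190000-66370000 and the Nck2 window chr1:43480000-43640000 of the mouse build mm9. They held 227 of the 120616 peaks in the 6 peak lists of the series, 128 at Rhoh and 99 at Nck2. The windows were picked because both lie on some of the longest acetylated clusters of wild-type cells, so their wild-type lengths are a description and not a finding.

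The lists came from chromatin immunoprecipitation and sequencing (ChIP-seq) of sorted CD4+ CD8+ double positive thymocytes of mice aged 6 weeks. Histone H3 acetylated on lysine 27 (H3K27ac), which marks promoters and enhancers in use, was mapped in 2 wild-type (WT) and 2 Rad21 -/- (KO) libraries. Smc1a, a subunit of the cohesin ring, was mapped in 2 WT libraries only. In KO mice a floxed Rad21 allele had been deleted by Cre under the control of Cd4, and the control animals were littermates. Whether the controls carried the floxed allele or Cre, and whether the libraries of a genotype came from separate animals, is not stated in the labels. The spread between libraries may therefore be technical. The remaining Rad21 protein was not measured in these files, and thymocyte marker genes were not checked, since gene positions on mm9 were not used here.

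Rhoh encodes a signalling protein of blood cells that helps to bring Zap70 and Lck to the T cell receptor. Nck2 encodes an adaptor protein that links phosphorylated receptors and the CD3 chains to the actin machinery. Cohesin holds distant pieces of chromatin together and forms loops, often between sites bound by CTCF, and Rad21 closes the cohesin ring that Smc1a helps to build. In the RefSeq gene order of GRCm38.p6, the protein-coding neighbours of Rhoh are N4bp2 and Chrna9, and those of Nck2 are Fhl2 and Ecrg4. The table's build is not that of the peaks, so no peak was assigned to a promoter, exon or intron.

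The promoter sequences of both genes are shown because the windows are named for them. Each line gives the 250 bases before the RefSeq start site (GRCm38.p6), 5′ to 3′ on the strand of the gene, with the motif matches in capitals.

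Rhoh: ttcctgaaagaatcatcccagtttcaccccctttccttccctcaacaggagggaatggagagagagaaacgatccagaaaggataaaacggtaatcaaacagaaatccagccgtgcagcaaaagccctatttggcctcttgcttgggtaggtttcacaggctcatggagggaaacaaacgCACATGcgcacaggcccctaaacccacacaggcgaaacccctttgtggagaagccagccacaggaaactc

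Nck2: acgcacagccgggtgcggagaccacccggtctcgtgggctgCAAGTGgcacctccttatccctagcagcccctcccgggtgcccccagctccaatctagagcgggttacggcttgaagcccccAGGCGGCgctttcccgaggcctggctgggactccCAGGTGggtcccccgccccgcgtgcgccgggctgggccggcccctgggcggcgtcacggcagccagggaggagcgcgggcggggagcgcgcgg

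The motifs searched on both strands were the E-box CANNTG, the ETS motif CCGGAAGT, the RUNX motif TGTGGT and the short CTCF core AGGNGGC. The Rhoh promoter held 1 E-box, CACATG. In the Nck2 promoter lay 2 E-boxes, CAAGTG and CAGGTG, and 1 CTCF core, AGGCGGC. No ETS or RUNX match lay in these 250 bases of either promoter, which says only that these letters are not there. Of 32851 mouse promoters in the table, 66.2% held an E-box, 25% a CTCF core, 14.0% a RUNX motif and 2.88% an ETS motif. The promoters differed in base composition, with 50.8% G and C at Rhoh and 75.2% at Nck2, against a median of 52.4% over the table. A match is a description of letters, not a bound site.

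Both loci were acetylated over most of the same ground in WT and KO cells, and both were covered over less length in the KO libraries. At Rhoh, peaks covered 110.4 kb and 115.0 kb of the window in WT replicates 1 and 2, and 103.9 kb and 90.6 kb in KO replicates 1 and 2. The genotypes did not overlap, but the highest KO value was only 6.51 kb below the lowest WT value. At Nck2 the WT libraries covered 95.6 kb and 93.5 kb, and the KO libraries 70.5 kb and 60.2 kb. Here the genotypes lay further apart, with 22.9 kb between the lowest WT and the highest KO value.

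**Figure D1:**
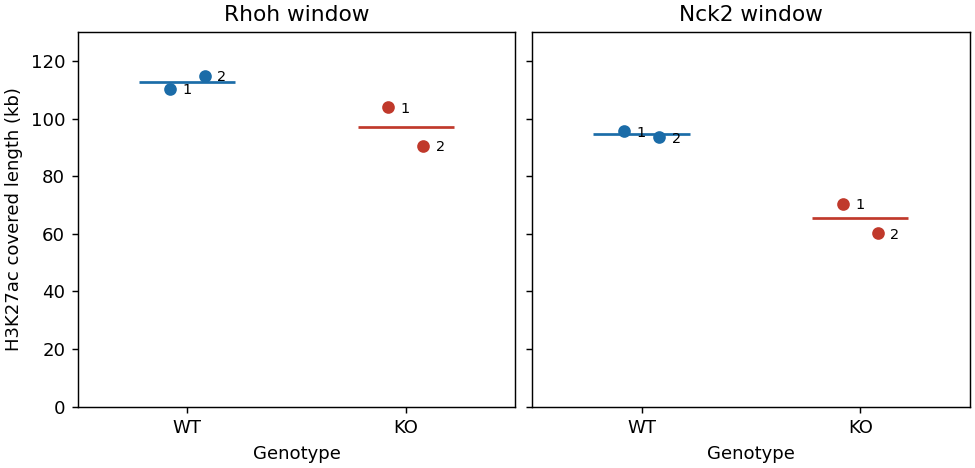
Covered length of H3K27ac peaks in kb (y axis, from 0) by genotype (x axis) in the Rhoh and Nck2 windows. Points are single libraries numbered by replicate and bars are means of 2 libraries. At Nck2 the KO points, 70.5 and 60.2 kb, lie well below the WT points, 95.6 and 93.5 kb, while at Rhoh the gap between the genotypes is 6.51 kb.

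The mean covered length was 112.7 ± 3.21 kb in WT and 97.2 ± 9.42 kb in KO at Rhoh (SD, n = 2 each), a difference of -15.4 kb or -13.7%. At Nck2 it was 94.5 ± 1.5 kb in WT and 65.4 ± 7.32 kb in KO (SD, n = 2 each), a difference of -29.2 kb or -30.9%. No test was made, because the WT lengths had chosen the windows. The Rhoh difference rested in part on 1 library, since it was -8.78 kb without KO replicate 2. Scaled to the total length called in each library, the Rhoh groups overlapped, with 99.1 kb in WT replicate 1 and 99.7 kb in KO replicate 1. The scaled Nck2 values stayed apart, with at least 85.8 kb in WT and at most 67.7 kb in KO.

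Lower KO coverage was common among long clusters built from WT calls. The total length called per library was 50.9 ± 7.56 Mb in WT and 50.1 ± 3.59 Mb in KO (mean and SD, n = 2 each). WT clusters were built from regions called in both WT libraries, joined where they lay within 12.5 kb of each other, with at least 3 regions each. The Rhoh cluster, chr5:66213444-66350112, ranked 2 of 1060 by summed region length, with 12 regions and 118118 bp. The Nck2 cluster, chr1:43500804-43621264, ranked 10, with 9 regions and 93746 bp. Both WT libraries covered more than both KO libraries in 49.1% of the 1060 clusters and in 46 of the 50 longest. Since the WT lengths chose these clusters, nothing is read from that count.

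The KO minus WT change in covered length had a median of -11.8% over the 1060 clusters. Among the 50 longest it was -21.2%, with quartiles of -28.9% and -13.5%. As WT calls built the clusters, a lower KO length is favoured, and nothing is read from the sign of these medians. Over its own cluster span Rhoh changed by -13.9%, near the upper quartile, and Nck2 by -30.9%, beyond the lower one. By their pattern over the 4 libraries, the clusters most like Rhoh were chr1:140024242-140101135 and chr2:152591431-152658026. Those most like Nck2 were chr7:65912261-66028034 and chr17:51901420-51995760. Likeness was the distance between the 4 log2 covered lengths, centred on their mean, among 39 other clusters of at least 50000 bp mean WT coverage. The nearest match to Nck2, on chromosome 7, was called over 79.6 and 80.5 kb by the WT lists and over 58.7 and 50.9 kb by the KO lists. For Rhoh, the nearest match on chromosome 1 was called over 57.4 and 59.3 kb by the WT lists and over 52.8 and 47.9 kb by the KO lists.

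**Figure D2:**
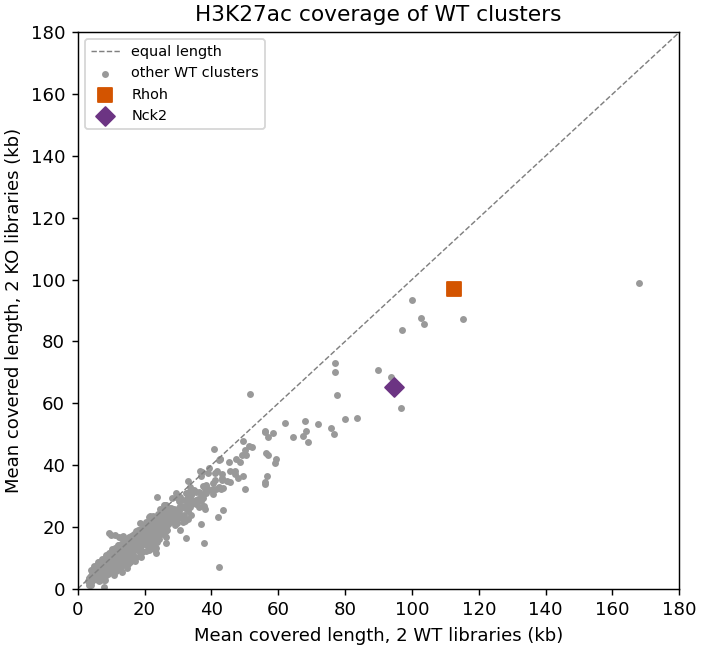
Mean covered length of H3K27ac in the 2 WT libraries (x axis, kb) and the 2 KO libraries (y axis, kb) for each of 1060 WT clusters, with Rhoh and Nck2 marked. Rhoh lies closer to the dashed line of equal length than Nck2, with changes of -13.9% and -30.9%.

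At Rhoh both KO libraries had fewer H3K27ac peaks than both WT libraries, while at Nck2 the genotypes overlapped in peak number. The mean difference changed sign at both loci when peaks were joined within 1000 bp. Long stretches were split into different numbers of peaks across libraries. At Rhoh, WT replicates held 16 and 13 H3K27ac peaks and each KO replicate 12. Nck2 had 15 and 19 peaks in WT and 16 in each KO replicate. The longest Rhoh peak of all was in KO replicate 1 and spanned 45591 bp, against 35445 and 29764 bp for the longest WT peaks and 28231 bp in KO replicate 2. At Nck2 the longest peaks were 33114 and 32856 bp in the WT lists and 21531 and 18347 bp in the KO lists, so the longest peak was shorter in both KO libraries there. Median peak lengths at Nck2 overlapped, with 3640 and 1920 bp in the WT lists and 2085.5 and 1919 bp in the KO lists. The stretch called as 1 peak in each WT library at Nck2 was called as 2 peaks in KO replicate 1 and as 4 in KO replicate 2.

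The peaks of the 4 H3K27ac libraries were merged where they overlapped or touched, which gave 11 regions at Rhoh and 16 at Nck2. At Rhoh 7 of 11 were called in all 4 libraries, and at Nck2 6 of 16, against 49.6% of all 24430 such regions in the series. A KO peak was missing altogether from 1 region at Rhoh and from 9 at Nck2, against 15.1% of all regions. At Rhoh this count was 0 without WT replicate 1, 2 without WT replicate 2 and 5 without KO replicate 1, and at Nck2 it was 4 without WT replicate 2. No region of either locus lacked a WT peak, against 11.2% of all regions, so no acetylated region was called at these loci in KO cells alone. As the loci were chosen for WT acetylation, nothing is read from these shares.

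**Figure D3:**
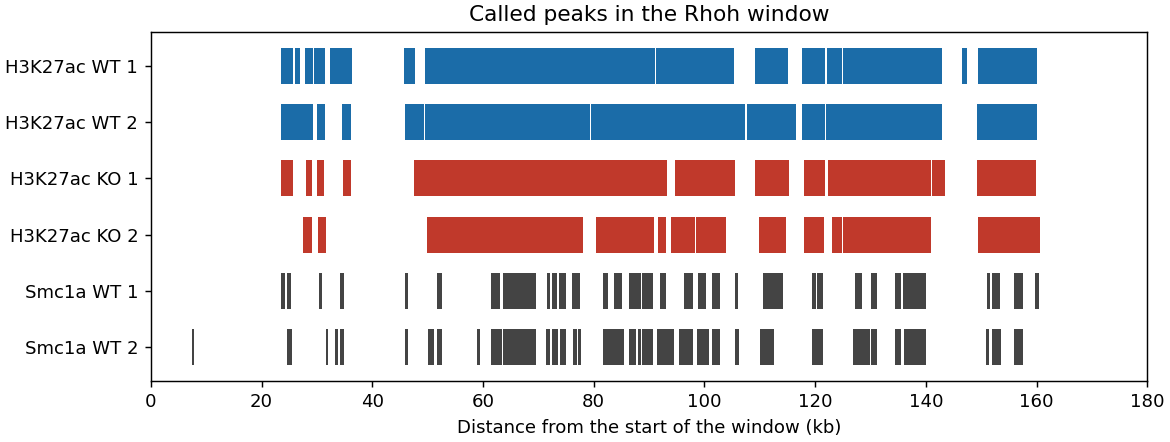
Called peaks in the Rhoh window (x axis, distance from the window's start in kb) in the 4 H3K27ac and 2 Smc1a libraries (rows). Each bar is 1 peak, and the central H3K27ac stretch appears in all 4 libraries while KO replicate 2 lacks the first peaks on the left.

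The centre of the Rhoh locus was acetylated in all 4 libraries. Its longest region, chr5:66235767-66297294 (61528 bp), was called over 57460 and 61062 bp by the WT lists and over 56361 and 50047 bp by the KO lists, with a best score of 3100 in each library. The score is the authors' value from their peak caller. Many of the highest H3K27ac scores of each list lie near 3100, so it does not separate the strongest peaks. The next longest region, chr5:66311943-66331091 (19149 bp), was called over 18836 and 19149 bp by the WT lists and over 18641 and 17815 bp by the KO lists. Most of both regions was thus called in each KO library, KO replicate 2 being lowest at both.

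Further right, chr5:66339296-66350634 (11339 bp) was called over 10693 and 10817 bp by the WT lists and over 10619 and 11150 bp by the KO lists, with overlapping genotypes. The region chr5:66297716-66306534 (8819 bp) was called over 5982 and 8819 bp by the WT lists and over 6198 and 4939 bp by the KO lists, again with overlap. Its neighbour chr5:66307539-66311834 (4296 bp) was called over 4238 and 4296 bp by the WT lists and over 3713 and 3577 bp by the KO lists. Its scores were 1475 and 1461 in WT and 731 and 561 in KO, though scores of separate lists may not share a scale. At chr5:66339296-66350634 the KO scores were not lower, with best scores of 2548 and 381 in WT and 3100 and 2533 in KO. Among the 5 longest Rhoh regions, KO coverage was below both WT values at 3.

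At Rhoh 3 regions were called in both WT libraries and in KO replicate 1 but not in KO replicate 2, and 2 of them lay at the left end. The leftmost region, chr5:66213444-66217013 (3570 bp), was called over 3171 and 3529 bp by the WT lists and 2183 bp in KO replicate 1, and had no peak in KO replicate 2. Region chr5:66222437-66226357 (3921 bp) was called over 3921 and 1775 bp by the WT lists and 1515 bp in KO replicate 1, again with no peak in KO replicate 2. The third of this kind, chr5:66331103-66333444 (2342 bp), was called over 1765 and 1835 bp by the WT lists and 2276 bp in KO replicate 1. KO replicate 1 thus covered more of that last region than either WT library. The 1 region with no KO peak, chr5:66336543-66337495 (953 bp), was called in WT replicate 1 alone with a score of 52.2, near the lowest score of that list.

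A pair of small regions of the left end, chr5:66217027-66219327 and chr5:66219439-66221712, were called in all 4 libraries. In KO replicate 2 a gap of 18099 bp without a call separated the second of them from the central stretch. The longest gap, at the same place, was 9409 and 9662 bp long in WT and 11357 bp in KO replicate 1.

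**Figure D4:**
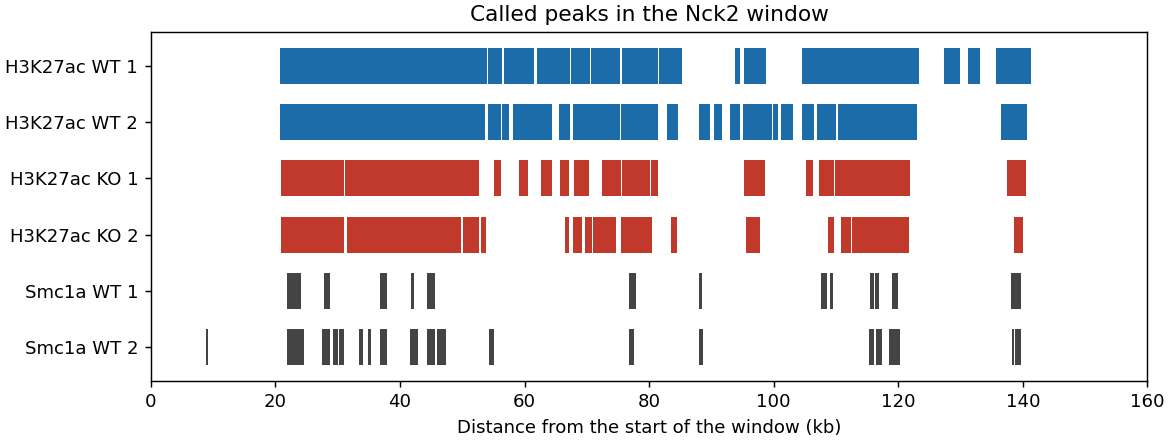
Called peaks in the Nck2 window (x axis, distance from the window's start in kb) in the 4 H3K27ac and 2 Smc1a libraries (rows). Each bar is 1 peak, and the stretch to the right of the first long block, dense in both WT rows, is thin in KO replicate 1 and nearly empty in KO replicate 2.

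The first long region of the Nck2 locus was called almost whole in KO cells. It spans chr1:43500804-43533927 (33124 bp) and was called over 33114 and 32856 bp by the WT lists and over 31728 and 31904 bp by the KO lists. Beside it, the region chr1:43534093-43547332 (13240 bp) was called over 12285 and 11553 bp by the WT lists, but over 5814 bp in KO replicate 1 and 665 bp in KO replicate 2. Of the 16 Nck2 regions this was the one with the largest difference in mean covered length. Its best scores were 526 and 191 in WT and 119 and 58 in KO. At the first long region the order was the other way, with best scores of 1658 and 1420 in WT and 3100 in each KO library. Scores of separate lists may not share a scale, so nothing is read from either order.

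The region chr1:43584512-43603332 (18821 bp) was called over 18821 and 17709 bp by the WT lists and over 15448 and 11605 bp by the KO lists. At chr1:43547478-43561471 (13994 bp) the WT lists called 13585 and 13558 bp and the KO lists 11061 and 11264 bp. The rightmost region, chr1:43615685-43621264 (5580 bp), was called over 5580 and 4260 bp by the WT lists and over 3154 and 1570 bp by the KO lists. All 5 of the longest Nck2 regions were covered over less length by each KO library than by either WT library.

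At chr1:43575138-43579697 (4560 bp), a shorter region called in all 4 libraries, the WT lists called 3545 and 4560 bp and the KO lists 3330 and 2178 bp. Region chr1:43561645-43565284 (3640 bp) was called over 3640 and 1799 bp by the WT lists, had no peak in KO replicate 1 and was covered over 996 bp in KO replicate 2. These regions, too, were covered least in a KO library.

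Of the 9 Nck2 regions without a KO peak, 8 were weak calls of 1 WT library. The region called in both WT libraries, chr1:43573694-43574563 (870 bp), scored 80.7 and 123. Such regions, with a peak of both WT and no KO library, made up 2.33% of all regions of the series.

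WT replicate 2 alone called chr1:43568025-43569716 with a score of 56.8, chr1:43570496-43571777 with 91.2 and chr1:43572962-43573639 with 50.2. It alone also called chr1:43579938-43580699 with a score of 67.0 and chr1:43581180-43583099 with 119. WT replicate 1 alone called chr1:43607420-43608568 with a score of 94.1, chr1:43608647-43609879 with 66.5 and chr1:43611260-43613064 with 97.7. None of these 8 was shared by the WT libraries, so each of them also set the WT libraries apart.

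Counting bases in place of regions leaves out such single-library calls. Of the 106.3 kb of Rhoh covered in both WT libraries, 94.6% was also covered in KO replicate 1 and 84.0% in KO replicate 2, and 4.48% in neither. Of the 84.8 kb of Nck2 covered in both WT libraries, 82.4% was covered in KO replicate 1 and 70.5% in KO replicate 2, and 12.8% in neither. Over the whole series the share in neither KO library was 5.86%. Rhoh lay a little below the series value and Nck2 above it, but WT calls chose the windows, so nothing is read from this. The series value was not computed for the settings that follow. With the upper 75% of each list by score the shares were 5.31% at Rhoh and 21.1% at Nck2. With 1 list fewer they were higher, at Rhoh 9.12% without WT replicate 1, 7.83% without WT replicate 2 and 16.0% without KO replicate 1. At Nck2 the same steps gave 20.5%, 22.0% and 29.5%.

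Bases covered in both WT libraries and in no KO library formed 13 pieces at Rhoh and 26 at Nck2. At Rhoh 3 were at least 500 bp long, the longest being chr5:66235888-66237602 (1715 bp). At Nck2 10 were at least 500 bp long. The longest, chr1:43601865-43603048 (1184 bp), lies at the right edge of a KO-covered block. The next, chr1:43540580-43541591 (1012 bp) and chr1:43538104-43539072 (969 bp), lie inside the region that was most thinned in KO cells. Of bases covered in both KO libraries, none at either locus lay outside the WT peaks, against 4.64% over the series. As the windows were chosen for WT acetylation, nothing is read from that difference.

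The Rhoh locus was dense in cohesin in WT cells. In its window 37 Smc1a peaks were called in replicate 1 and 38 in replicate 2, and 30 of the 39 merged sites had a peak of both, against 52.8% of such sites over the series. Nck2 held 14 and 19 Smc1a peaks, and 12 of 21 merged sites were shared by the replicates. Smc1a did not enter the choice of the windows. The Rhoh cluster held more reproducible Smc1a sites than each of the other WT clusters, 30 against at most 18. The Nck2 cluster held 12, which ranked 10 of 1060, with a median of 1 over all clusters and 8 over the 50 longest. These counts move with cluster length.

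Per length, both replicates together covered 37.7% of the acetylated bases of Rhoh and 12.1% of those of Nck2. Acetylated bases here are those covered in both WT libraries. The share was 7.57% over the series and had a median of 12.5% over the 50 longest clusters, among which Rhoh ranked 2 and Nck2 27. Among all 1060 clusters, short ones included, Rhoh ranked 15 and Nck2 302. Rhoh was therefore high in Smc1a for a long cluster, while Nck2 was near the middle of them.

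Nearly all reproducible Smc1a sites of the loci lay in WT acetylation. At Rhoh 29 of 30 overlapped an H3K27ac peak of both WT libraries, and at Nck2 11 of 12, against 21.4% of the 14848 reproducible sites of the series. The windows were chosen for long WT acetylation, so nothing is read from that difference. Of those 29 Rhoh sites, 26 also had a peak of both KO libraries, and at Nck2 all 11 did, against 90.4% over the series. The single Rhoh site without any KO peak compares with 3.81% over the series. The shares at both loci were near these values.

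**Figure D5:**
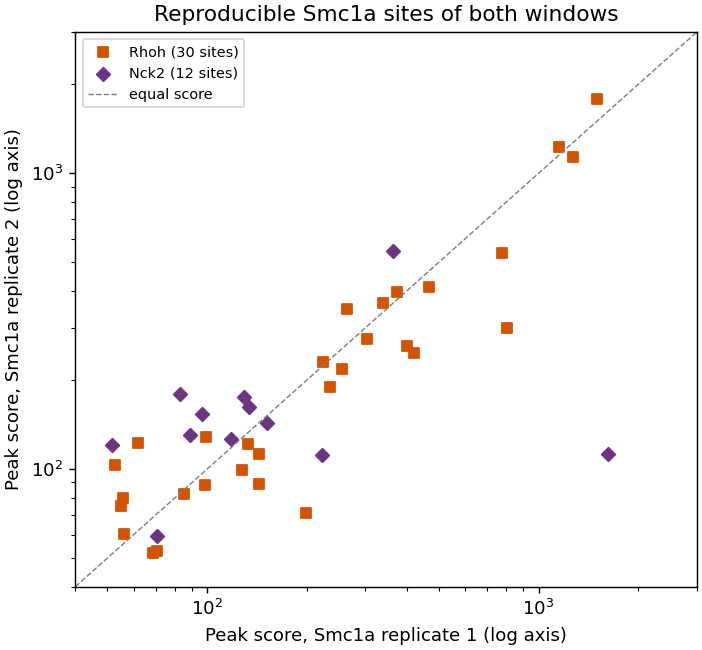
Scores of the reproducible Smc1a sites of the Rhoh (30 sites) and Nck2 (12 sites) windows in replicate 1 (x axis, log) and replicate 2 (y axis, log), with the dashed line marking equal scores. The Rhoh points with the highest scores lie close to the line, while 1 Nck2 site scored 1620 in replicate 1 and 112.5 in replicate 2.

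The strongest Smc1a sites of Rhoh were a pair in the right part of the acetylated stretch and 1 at its left end. At chr5:66329176-66330086 (911 bp) the scores were 1497 and 1789, above 99.3% and 99.9% of the peaks of their lists. Next to it, chr5:66325952-66329128 (3177 bp) scored 1155 and 1224. On the left, chr5:66214581-66215549 (969 bp) scored 1271 and 1139, above 98.6% and 99.5% of the lists. This left site lies in the region that had no H3K27ac peak in KO replicate 2, while KO replicate 1 covered all 969 bp of it. The acetylation around the right pair was called in all 4 libraries.

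Within the central stretch, chr5:66253538-66259583 was the longest site (6046 bp) and scored 805 and 299.5. To its left, chr5:66251413-66253411 scored 99.0 and 129, and chr5:66241711-66242668 scored 338 and 364. These 3 sites lay wholly inside H3K27ac peaks of all 4 libraries.

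A row of weaker sites followed. The site chr5:66261447-66262119 scored 70.5 and 53.0, and chr5:66262506-66263620 scored 55.7 and 79.7. Scores were 143 and 89.1 at chr5:66263698-66265070, and 56.0 and 60.4 at chr5:66266028-66267717. At chr5:66271666-66272565 they were 84.9 and 82.2. All 5 scored below the median of their lists but were found in both replicates.

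Scores of 133 and 121 were given to chr5:66273710-66275457, and of 144 and 113 to chr5:66276373-66277741. The small site chr5:66277822-66278609 scored 68.7 and 52.1, and its neighbour chr5:66278655-66280785 scored 234 and 189. All 4 were wholly covered by H3K27ac in both genotypes. By contrast, of the 3031 bp of chr5:66281511-66284541, which scored 127 and 98.8, WT libraries covered all and KO libraries 1683 and 1850 bp.

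Stronger sites closed the central stretch. Of these, chr5:66285447-66287900 scored 304 and 276, chr5:66288675-66290893 scored 264 and 347, and chr5:66291359-66292805 scored 774 and 539. All were wholly covered by H3K27ac in the 4 libraries. The site chr5:66295531-66296153, which scored 98.6 and 88.2, lay in acetylation of WT replicate 2 alone.

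Beyond the central stretch, chr5:66300000-66304180 (4181 bp) scored 421 and 246, and chr5:66309423-66311446 scored 55.0 and 74.8. Near the strong right pair, chr5:66316922-66319883 scored 374 and 397, chr5:66320014-66321194 scored 466 and 414, and chr5:66324435-66325473 scored 255 and 218. At the right end, chr5:66340916-66341585 scored 199 and 70.9, chr5:66341874-66343486 scored 223 and 230, and chr5:66345885-66347613 scored 402 and 261. Every one of these 8 sites was wholly covered by H3K27ac in each library of both genotypes.

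A pair of weak Rhoh sites lay where KO calls were missing. The site chr5:66224224-66224908 scored 61.8 and 122 and had no H3K27ac peak in KO replicate 2. At chr5:66235953-66236427, with scores of 52.8 and 103, neither KO library had a peak while both WT libraries covered the site. It was the 1 reproducible site of the loci acetylated in both WT and in no KO library.

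At Nck2 the site with the highest Smc1a score lay at the left end of the acetylated stretch, and the replicates disagreed on its strength. The site chr1:43501849-43504560 (2712 bp) scored 1620 in replicate 1, above 99.5% of that list, and 112.5 in replicate 2, above 48.5%. It begins 1045 bp inside the first acetylated base of the locus and was wholly covered by H3K27ac in all 4 libraries. Next in score was chr1:43598453-43600232 (1780 bp), with 364 and 548, near the right end of the second long block.

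Other sites of the first Nck2 block were modest. Scores were 134 and 162 at chr1:43507457-43508815, 130 and 175 at chr1:43516778-43517948, 83.1 and 179 at chr1:43521675-43522976, and 70.8 and 59.3 at chr1:43524297-43525591. All 4 were wholly covered by H3K27ac in both genotypes. The thinned region chr1:43534093-43547332 held no reproducible Smc1a site, only a peak of replicate 2.

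To its right, chr1:43556761-43557830 scored 118 and 127, and chr1:43568012-43568725 scored 222 and 111. The second of these overlapped an H3K27ac peak of WT replicate 2 alone. Sites chr1:43595380-43596113 and chr1:43596226-43597389 scored 51.5 and 120, and 96.7 and 154. The last 2 sites, chr1:43618108-43618675 and chr1:43618752-43619714, scored 152 and 142.5, and 88.6 and 130. KO replicate 2 covered only 159 of the 568 bp of the first of this pair and all of the other.

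The acetylated bases that lay under Smc1a were called in KO cells more completely than those that did not. At Nck2, KO replicates 1 and 2 covered 100% and 97.3% of the bases under Smc1a, but 80.0% and 66.8% of the others. Rhoh showed 98.2% and 95.9% under Smc1a and 92.4% and 76.8% elsewhere. Over the series the values were 96.0% and 93.0% under Smc1a and 91.8% and 84.1% elsewhere, in the same direction and closer together. None of the 10.9 kb of Nck2 covered in both WT and in no KO library lay under Smc1a, and 0.720 kb of the 4.76 kb of Rhoh did. Over the series 93.9 kb of 2395 kb of such bases did. Of all bases covered in both WT libraries, 37.7% lay under Smc1a at Rhoh, 12.1% at Nck2 and 7.57% over the series.

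Region length moved with the difference between bases under Smc1a and the others. Regions with a reproducible Smc1a site had a median length of 8819 bp at Rhoh and 13994 bp at Nck2, against 2288 and 1282 bp without one. Both KO libraries called 5 of 7 regions with a site and 2 of 4 without at Rhoh, and 4 of 5 with and 2 of 11 without at Nck2. Over the series these shares were 79.8% with and 63.3% without a site, with median lengths of 3405 and 1978 bp. The part of length in the difference was not tested. This comparison was chosen after the peaks had been seen.

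Stretches without H3K27ac regions or reproducible Smc1a sites flanked both loci, though Smc1a replicate 2 alone had a weak peak in each left flank, chr5:66197442-66197866 (score 51.3) and chr1:43488819-43489180 (score 51.8). The nearest acetylated region outside the Rhoh window ended 24.0 kb to the left of the locus and the nearest on the right began 108.9 kb away. For Nck2 these distances were 36.8 and 26.4 kb. The nearest reproducible Smc1a sites outside lay 27.5 and 100.2 kb from the outermost sites of Rhoh, and 41.1 and 30.6 kb from those of Nck2. Left of the Rhoh window, chr5:66187985-66189403 was just outside its edge.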

How the data were processed

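H3K27ac (2 WT, 2 KO) and Smc1a (2 WT) peak lists were analysed; the 5 input libraries were not used here. Bowtie 0.12.8 and the build mm9 are named in the submitters' processing notes. MACS appears in the peak names of the files, and a list holds the peaks of 1 library, so replicates were not pooled. How the caller was set, and with which control, is not given in the sources used here. Each deposited peak has a score, the authors' own value, used to describe, rank or filter peaks within a list. The files hold no reads, so depth is unknown, and where a list has no peak, acetylation may still be present.

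Intervals were handled with Python 3.11.15 and plotted with matplotlib 3.10.9. Interval functions were tested on simulated data (200 simulations, 0 mismatches). Peaks of a window overlap it by at least 1 bp. Coordinates count from 1. A percentile is the share of peaks of a list with a lower score. Bases under Smc1a were covered in both Smc1a replicates. Distances to outside regions run from the outermost region or site of the window.

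Named were the 5 longest regions of each window, all regions missing a genotype or 1 KO library, and every reproducible Smc1a site. The members and lists were chosen with earlier results of these data known, so no test was made. Lists of T cell receptor genes and cell type markers were not analysed, as no mm9 annotation was used. Of the 2 genes, both matched the promoter table. Alternatives were stricter or equal lists, joined peaks, scaling, other overlaps and stitching distances (12500 bp here), the WT cluster span, pairing by replicate number, and each library left out.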

Additional observations from a re-analysis of the deposited data

How the results depend on the processing

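Under all alternatives run, the mean KO covered length stayed below the mean WT covered length at both loci. Single Rhoh libraries of the genotypes overlapped after scaling to the total called length. Leaving out 1 library at a time gave KO minus WT differences of -22.1 to -8.78 kb at Rhoh and -34.3 to -24.0 kb at Nck2. Pairing by replicate number (replicate block) gave differences of -6.51 and -24.4 kb at Rhoh and -25.1 and -33.3 kb at Nck2, whose means (-15.4 and -29.2 kb) equal the unpaired ones by construction. The labels do not say whether the numbers mark shared samples.

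Peak number changed sign: with peaks joined within 1000 bp it was 2.5 higher in KO at Rhoh and 1.5 at Nck2, against -2.5 and -1. Leaving out single libraries gave -4 to -1 at Rhoh and -3 to 1 at Nck2 (1 without WT replicate 2). The cause was not tested.

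Regions without a KO peak numbered 1 at Rhoh, but 2 with 50% coverage, with the upper 75% of each list and with equal lists, and 0 to 5 with a library left out (5 without KO replicate 1). At Nck2 the 9 became 4 with the upper 75% and 3 with merging within 1000 bp, and 4 to 10 with a library left out (4 without WT replicate 2). Smc1a replicate 2 alone gave 19 peaks at Nck2, against 12 reproducible sites. Stitching within 25000 bp moved Rhoh to rank 8 and Nck2 to rank 18.

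For the share of WT bases in neither KO library, alternatives were chosen after seeing the data. With a library left out it ran from 5.39% to 16.0% at Rhoh and from 17.6% to 29.5% at Nck2. Leaving out a KO list cannot lower this share. Leaving out a WT list changes the bases counted, and the cause of the rise there was not tested. Of 72 alternatives over 12 results, 47 stayed within the range set for them, 22 moved beyond it and 3 changed sign. The range was the pooled SD of the libraries for differences, and a set ratio for counts, ranks and shares. The tally includes the replicate block, which cannot move, so it does not measure robustness. Depth per library is unknown.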
